A study of Mus musculus with 12 samples.

Results

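Among CD11c-selected cells of mouse breast tumors, 649 cells of 11639 carried Retnla or Ear2 transcripts together with Fn1 and Ccr2, with at most 1 Gpnmb UMI and none of the proliferation gene Mki67. They were chosen by raw counts of unique molecular identifiers (UMIs, 1 for each captured RNA molecule): at least 1 UMI of Retnla or Ear2, at least 5 of Fn1, at least 1 of Ccr2, under 2 of Gpnmb and 0 of Mki67, in a cell with at least 200 detected genes. These cells, called Retnla/Ear2 cells here, made up 5.58% of the kept cells (exact binomial 95% interval 5.17 to 6.01) and held 8.98% of their UMIs. Levels of these 6 genes therefore describe the choice and are no result, as are those of C1qa, Csf1r and Cd209a, which chose the cells they are compared with. Lyz2, lysozyme of myeloid cells, and H2-Ab1, a class II antigen-presenting chain, each had a UMI in 100% of the Retnla/Ear2 cells. Both genes are abundant and free RNA can add to such shares, so these shares alone do not settle the label of a myeloid cell.

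The tumors came from MMTV-PyMT mice, in which the polyoma middle T antigen is driven by a mammary tumor virus promoter and breast cancer arises spontaneously. All groups carried this transgene and received no further treatment. 3 samples were wild-type for protease-activated receptor 2 (PAR2) and 3 carried the PAR2 G37I mutation, which makes the receptor resistant to signaling by coagulation factor Xa. CD11c bead-selected cells of late-stage tumors, and CD4/CD8 bead-selected T cells of mid-size tumors from 3 samples of each genotype, were frozen, thawed and sequenced on the 10x Genomics platform. Ages are not given in the labels. The 6 samples of a selection were joined in 1 matrix whose barcodes do not name a sample, so each matrix is 1 sample, no genotypes are compared, and no test between conditions is given.

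As background, Ccr2 is the chemokine receptor that brings monocytes from blood into inflamed tissue and tumors, where they turn into macrophages or dendritic cells (DCs). Retnla encodes RELMα, a secreted protein that IL-4 and IL-13 induce in macrophages through STAT6, and Ear2 encodes a ribonuclease of the eosinophil-associated family that some monocytes and macrophages also make. Fn1 encodes fibronectin, a matrix and plasma protein. Macrophages that arise from monocytes in the serous cavities are known for Retnla, Ccr2, Cd226 and the transcription factor Irf4, together with class II genes.

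The promoters of Retnla, Ear2 and Lyz1 are shown because the first genes name the cells and Lyz1 was the most abundant of the given markers outside the rule. They are the 250 bases before the RefSeq start on GRCm38.p6, written 5′ to 3′ on the strand of the gene, and for Retnla only the first 192, since GENCODE starts the gene earlier. Retnla lies at chr16:48842551-48844461 on the plus strand, Ear2 at chr14:44102654-44103534 on the plus strand and Lyz1 at chr10:117287797-117292868 on the minus strand by GENCODE. Capitals mark letters that match TTGCNNAA, a C/EBP-type motif, or TTCNNNNGAA, a STAT6-type motif, on either strand.
Retnla, chr16:48842359-48842550: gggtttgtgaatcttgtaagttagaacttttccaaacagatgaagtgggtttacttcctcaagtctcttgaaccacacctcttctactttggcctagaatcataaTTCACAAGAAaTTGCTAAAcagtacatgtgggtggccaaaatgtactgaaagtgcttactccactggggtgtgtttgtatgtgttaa
Ear2, chr14:44102404-44102653: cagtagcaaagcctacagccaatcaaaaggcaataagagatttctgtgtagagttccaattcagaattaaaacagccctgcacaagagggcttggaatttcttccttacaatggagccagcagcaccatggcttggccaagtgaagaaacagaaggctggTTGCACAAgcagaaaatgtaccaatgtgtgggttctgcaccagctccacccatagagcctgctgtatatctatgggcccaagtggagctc
Lyz1, chr10:117292869-117293118: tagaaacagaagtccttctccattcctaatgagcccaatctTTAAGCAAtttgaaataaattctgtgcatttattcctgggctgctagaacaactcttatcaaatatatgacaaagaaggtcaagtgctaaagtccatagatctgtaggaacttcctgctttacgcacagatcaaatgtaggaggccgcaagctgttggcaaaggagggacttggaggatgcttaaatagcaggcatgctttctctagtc
The Retnla stretch held the STAT6-type letters TTCACAAGAA from base 106 and the C/EBP-type letters TTGCTAAA from base 117, with 1 base between them. It also held GAGGAAGT, a PU.1-type motif, on the other strand. Ear2 held the C/EBP-type letters TTGCACAA from base 161, and Lyz1 held TTAAGCAA from base 42, the same motif on the other strand. Of all 32851 promoters of 250 bases, 9.56% held the C/EBP-type letters, 5.85% the STAT6-type letters and 2.44% the PU.1-type letters. Of 15 genes looked up, 13 had an entry, and the other 10 of these held none of the 3 motifs in this window, Aldh1a2, F7, F10 and Irf4 among them. A match is a description of letters, not of binding.

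The Retnla/Ear2 cells were deep. Their median was 15352 UMIs (range 597 to 63689) and 3373 genes per cell, and the median mitochondrial share was 5.05%. The comparison cells were 4014 macrophage cells (at least 1 UMI of C1qa and Csf1r, and none of Ccr2; median 7990 UMIs) and 501 conventional type 2 dendritic cells (cDC2; at least 3 UMIs of Cd209a and none of Fn1; median 12025 UMIs). 59 cells met both of the comparison definitions and 0 Retnla/Ear2 cells met either. The share that passed rose from 0.653% in the quartile of kept cells with the fewest UMIs to 12.2% in the quartile with the most, so the number of these cells depends on depth. The barcodes fall in 6 alphabetical runs, which are not tied to a sample by any label and serve here only to show spread. Runs held 58 to 140 Retnla/Ear2 cells, 3.13% to 16.1% of their kept cells, with the highest share in a run of 360 cells whose median depth was 31161.5 UMIs. In the matrix 76 barcodes repeat an earlier one, and 3 of the 649 cells have such a barcode. 90 barcodes occur in both matrices, 3 of them among the Retnla/Ear2 cells.

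The genes of the rule were high by choice. Retnla had a median of 21 UMIs per cell (quartiles 1 and 132, highest 3181), Ear2 9 (2 and 22, highest 115), Fn1 31 (15 and 73, highest 466) and Ccr2 9 (4 and 16, highest 62). Both Retnla and Ear2 were seen in 412 cells, Retnla alone in 103 and Ear2 alone in 134. Of all UMIs in the kept cells, the Retnla/Ear2 cells held 58.3% of Retnla, 48.8% of Ear2 and 42.4% of Fn1. The 20 cells just inside the limit, with 5 Fn1 UMIs, had 3611 Retnla and 182 Lyz1 UMIs per 1000000 (CPM). The 29 cells just outside, with 4, had 1232 Retnla and 285 Lyz1 CPM. Free RNA can add to such shares, and Retnla had a UMI in 9.43% of 53 T cells of this matrix (Cd3e and Trbc2 present, Csf1r absent, at most 5 Lyz2 UMIs; median 5148 UMIs) and 6.16% of 276 epithelial cells (Epcam and Krt8 present, Csf1r and C1qa absent; median 10214 UMIs; 1 of them also passed the rule), against 79.4% of the Retnla/Ear2 cells. Ear2 was seen in 0 of the 53 T cells, which allows a share of cells with a UMI of up to 5.66% by the limit of 3 counts, in 4.35% of epithelial cells, in 38.7% of cDC2 cells and in 84.1% of the Retnla/Ear2 cells.

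Lyz1, Aldh1a2 and Cebpe are outside the rule but were given beforehand as markers of these cells. They were named with earlier results of these data known, so their higher levels describe the cells and test nothing. Levels here are CPM, UMIs of a gene per 1000000 UMIs, summed over the cells of a group, with exact Poisson 95% intervals, and these and all other intervals cover counting error only. Lyz1, a lysozyme gene of Paneth cells and of some myeloid cells, stood at 678 (663 to 694), with 403, 617 and 961 as the lowest, median and highest of the 6 runs. It was at 33.1 in macrophage cells and 12.7 in cDC2 cells, 20.5-fold (19.3 to 21.7) and 53.4-fold (43.3 to 66.7) lower, and every run of the Retnla/Ear2 cells lay above every run of the others, whose highest was 80.5. The log2 fold of Lyz1 against cDC2 cells, 5.74, was 6.41 without run 3. Aldh1a2 encodes the enzyme that makes retinoic acid from retinal. The gene lies at chr9:71215789-71296243 on the plus strand. Its level was 66.0 (61.3 to 70.9), with runs at 44.3, 63.1 and 84.0, against 1.60 in macrophage cells and 6.49 in cDC2 cells. Cebpe encodes a C/EBP factor known for the granule genes of neutrophils and eosinophils. It lies at chr14:54710360-54712174 on the minus strand and stood at 24.6 (21.7 to 27.7), with runs at 20.1, 23.5 and 31.7, against 0.991 and 1.73. All 6 runs of Aldh1a2 and Cebpe were above those of both comparison groups.

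These genes were not seen in every Retnla/Ear2 cell. A Lyz1 UMI was found in 40.5% of them, an Aldh1a2 UMI in 44.4% and a Cebpe UMI in 24.96%. In epithelial cells of the same matrix the shares were 1.81%, 0.362% and 1.09%. With every cell thinned to 3000 UMIs, which left 629 Retnla/Ear2, 3062 macrophage and 490 cDC2 cells and left out 20, 952 and 11 shallower ones, Lyz1 was seen in 29.1%, 3.27% and 1.47% and Aldh1a2 in 15.5%, 0.299% and 1.52%. The order of the groups was thus the same at equal depth. The Retnla/Ear2 cells held 47.3% of all Lyz1 UMIs, 42.2% of those of Cebpe and 41.3% of those of Aldh1a2.

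**Figure D1:**
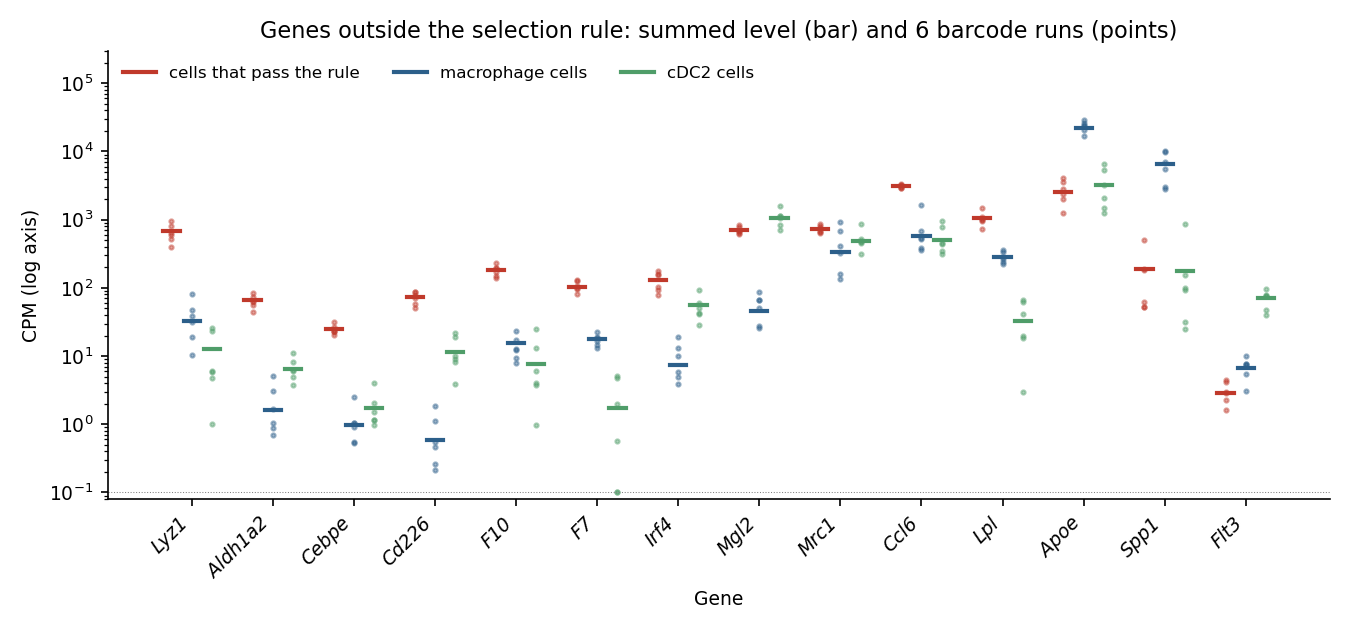
CPM (log axis) of 14 genes outside the rule in Retnla/Ear2 cells, macrophage cells and cDC2 cells, with a bar for the summed level and points for the 6 alphabetical barcode runs; runs with 0 UMIs are drawn at the dotted line. Lyz1, Aldh1a2, Cebpe, Cd226, F10 and F7 lie higher in all 6 runs of the Retnla/Ear2 cells, while Apoe and Spp1 lie higher in macrophage cells.

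Lyz1 and Ear2 have near copies. Of the 50-base words in the last 500 bases of the transcript, 17.7% of those of Lyz1 are also in another gene, Lyz2, and 38.1% of those of Ear2 are in Ear1, Ear10, Ear6 or pseudogenes of the family, so part of their reads could be given to a copy or dropped. No word of Retnla, Aldh1a2, Cebpe or F7 was shared. Lyz2 itself was at 10995 CPM in the Retnla/Ear2 cells, 9369 in macrophage cells and 1859 in cDC2 cells, the same order of groups as Lyz1, and was under 2-fold apart from macrophage cells.

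Against macrophage cells, 359 of 5814 genes were at least 2-fold higher in the Retnla/Ear2 cells (6.17%) and 560 at least 2-fold lower (9.63%), among genes of at least 20 CPM in either group. Against cDC2 cells, 281 of 5488 were higher (5.12%) and 324 lower (5.9%). 125 of 5307 genes considered in both comparisons were higher in both (2.36%), and 108 lower in both (2.04%). Because the cells were chosen by their transcripts, these counts describe the groups and carry no test. The shares are the background for the counts of listed genes given below.

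The leading genes over macrophage cells, among those seen in at least 25% of the cells, were Ccr2, Ear2 and Retnla of the rule and 12 others: Cd226, Upb1, Hr, Lmo1, Aldh1a2, Cd2, Slc27a3, Il1rl1, Ryr1, Ltb4r1, Cd300lg and Clec4b1. Cd226, a receptor for nectin-type adhesion proteins that is best known on T and NK cells, led with 72.7 CPM (runs 50.6, 75.6 and 86.9) against 0.590 in macrophage cells, 123-fold (82.8 to 191), and 11.4 in cDC2 cells. Upb1, an enzyme of pyrimidine breakdown, had 53.4 against 0.637 and 8.80. Cd2, an adhesion receptor of lymphocytes, had 66.0 against 1.65 and 3.89. T cells are also known for Cd226 and Cd2, and the 7 T cell markers summed to 4.59 CPM in the Retnla/Ear2 cells, 17.2 in macrophage cells and 25.5 in cDC2 cells. A Cd226 UMI was found in 50.5% of the Retnla/Ear2 cells, 0.424% of macrophage cells and 30.2% of the 53 T cells.

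Of the other genes in that order, Il1rl1, the receptor for IL-33, was at 38.3 CPM in the Retnla/Ear2 cells, 1.51 in macrophage cells and 20.05 in cDC2 cells. Ltb4r1, the leukotriene B4 receptor, was at 144, 5.73 and 84.5, and Clec4b1, a C-type lectin, at 326, 15.4 and 192. These 3 genes were over 20-fold higher than in macrophage cells and under 2-fold higher than in cDC2 cells. For Clec4b1, 12.9% of the 50-base words are shared with Clec4a2.

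Over cDC2 cells, the leading genes were Fn1 and Retnla of the rule and F7, Lyz1, Lpl, F10, Cxcl3, Cd2, Igf2r, Aldh1a2, P2ry10b, Sdc1, Mmp19, Ephx1 and Ms4a8a. Lpl, lipoprotein lipase, had 1063 CPM (runs 727, 1023 and 1476) against 32.7 in cDC2 cells, 32.5-fold (28.5 to 37.2), and 288 in macrophage cells. Mmp19, a matrix metalloproteinase, had 443 against 51.8 and 88.7. Sdc1, the proteoglycan syndecan-1, had 57.2 against 6.35 and 20.03. Ms4a8a, a membrane protein of the MS4A family, had 100.2 against 12.4 and 9.13. Every run of Lpl, Mmp19 and Ms4a8a lay above every run of both other groups, and for Sdc1 the lowest run of the Retnla/Ear2 cells (41.6) and the highest of macrophage cells (42.2) overlapped.

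**Figure D2:**
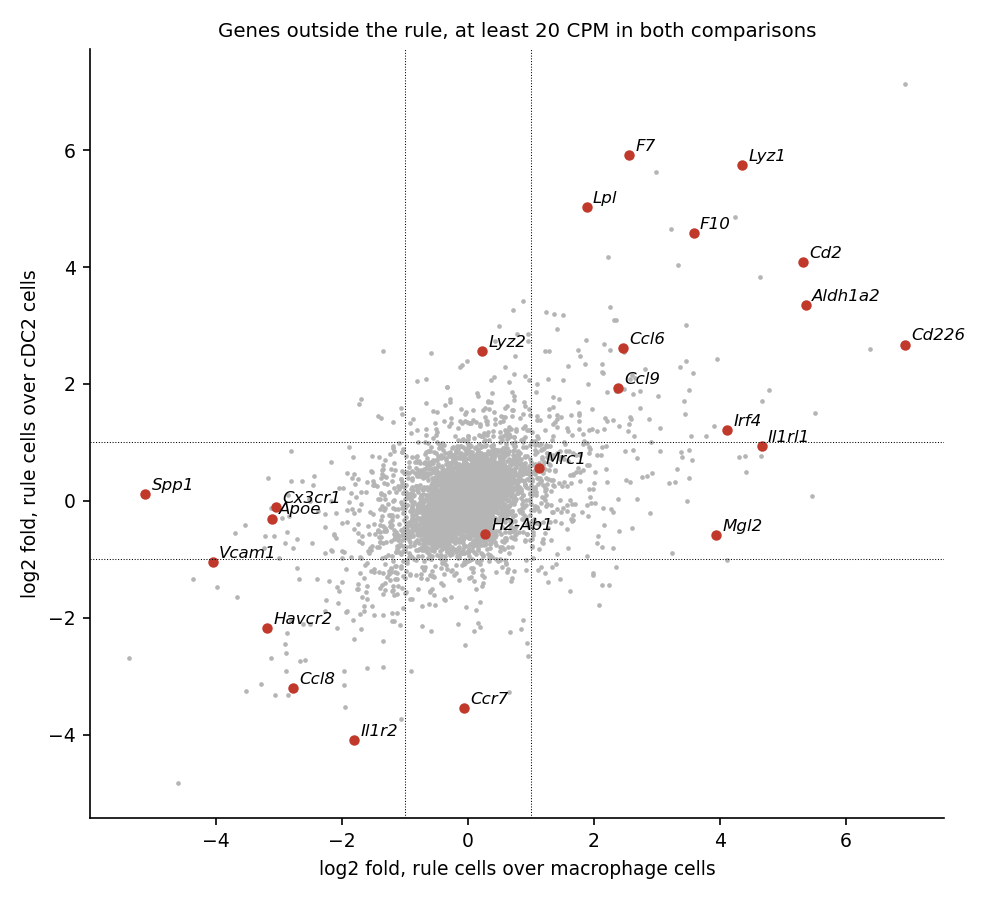
Log2 fold of the Retnla/Ear2 cells over macrophage cells (horizontal axis) against that over cDC2 cells (vertical axis), each point a gene outside the rule with at least 20 CPM in either group of both comparisons, and dotted lines at 2-fold. Lyz1, F10, Aldh1a2, Cd2 and Cd226 lie at the upper right, Apoe and Spp1 at the left near 0 on the vertical axis, and Ccr7 and Il1r2 at the bottom.

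Genes of coagulation were split. As background, factor VII with tissue factor turns factor X into factor Xa, the protease whose signaling through PAR2 the G37I mutation blocks. F10 and F7 lie side by side, at chr8:13037308-13056676 and chr8:13026034-13035809 on the plus strand. F10 was at 183 CPM (176 to 192) in the Retnla/Ear2 cells, with runs at 140, 185 and 231, against 15.3 in macrophage cells and 7.64 in cDC2 cells, 11.98-fold (10.96 to 13.1) and 24.0-fold (18.3 to 32.2). F7 was at 105 (98.7 to 111), with runs at 82.0, 103 and 133, against 17.7 and 1.73. Every run of both genes was above every run of the other groups. The log2 fold of F7 against cDC2 cells, 5.92, rests on 12 UMIs in cDC2 cells and was 7.34 without the 5% of cells with the most UMIs. A UMI of F10 was found in 60.6% of the cells and of F7 in 42.7%. After thinning these shares were 32.7% and 20.8%, against 2.85% and 2.65% of macrophage cells. The Retnla/Ear2 cells held 39.5% of all F10 UMIs and 39.7% of all F7 UMIs in the matrix.

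Of 11 coagulation and plasminogen genes considered against macrophage cells, 4 were at least 2-fold higher (F7, F10, Pros1 and Serpinb2) and 3 lower, Procr and Plau among them, with a median log2 fold of 0.29 beside -0.06 over all genes. Against cDC2 cells 4 of 10 were higher, the same genes, and Procr and Plat were lower (median 0.71 beside 0.03). Procr, the endothelial protein C receptor, had 11.7 CPM against 49.4 and 53.1. Plau, a plasminogen activator, had 32.8 against 94.4 in macrophage cells. F3, tissue factor, was low, at 11.3 against 4.79 and 1.15, and seen in 6.47% of the cells. Of the thrombin and protease receptors, F2rl2 (PAR3) had 11.9 against 0.566 and 4.04. F2rl1, which encodes PAR2, had 8 UMIs in all 649 cells, 0.720 CPM (0.311 to 1.42), a level at which no difference was detectable.

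Genes of mature macrophages were lower than in macrophage cells, which C1qa and Csf1r had chosen, so that genes found with these share in the choice. Of 10 macrophage genes outside the definitions, 9 were at least 2-fold lower than in macrophage cells (C1qb, Adgre1, Mertk, Apoe and Trem2 among them) and Mrc1 was higher (median log2 fold -1.58). Apoe, the lipid carrier of macrophages, was at 2587 CPM (runs 1250, 2615 and 4041) against 22190 in macrophage cells, 8.58-fold lower, and 3192 in cDC2 cells. The log2 fold of Apoe against macrophage cells, -3.10, was -4.28 when Retnla and Ear2 were both asked for. Of 9 genes of lipid-associated macrophages 7 were lower and Lpl was higher (median -2.81). Spp1, osteopontin, was at 6649 in macrophage cells and 191 in the Retnla/Ear2 cells (runs 51.6, 124 and 498), 34.8-fold lower. The log2 fold of Spp1 against macrophage cells, -5.12, lay between -6.35 and -4.41 over the alternative settings and was -5.94 without run 1, and every run was below every run of macrophage cells. Spp1 led the genes lower than in macrophage cells and was followed by Lilra5, Tmem119, Zmynd15, Vcam1, Arhgap24, Olfml3, Stab1, Abcc3 and Ms4a7, down to 12.9-fold. Arg1, arginase, was at 4.23 against 175, and is both a lipid-associated and an alternative activation gene of these lists.

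Against cDC2 cells the same macrophage list went the other way: 1 of 9 genes was higher past 2-fold (C1qb), 0 lower, with a median log2 fold of 0.57. Adgre1 (F4/80) was at 149 CPM in the Retnla/Ear2 cells, between 350 in macrophage cells and 85.8 in cDC2 cells. Trem2 was likewise between, at 82.6, 579 and 45.6. Thus for both genes the Retnla/Ear2 cells lay nearer to cDC2 cells than to macrophage cells.

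Of 11 DC genes considered, Flt3, Klrd1, Cd7, Ifitm1, Zbtb46 and Clec10a were at least 2-fold lower than in cDC2 cells and Irf4 was higher. The median log2 fold of the 11 was -2.22. Cd209a had chosen the cDC2 cells, so that genes found with it share in the choice. Flt3, the growth factor receptor of DCs, had 2.88 CPM against 70.7 in cDC2 cells, and Zbtb46, a factor of conventional DCs, 7.11 against 41.7. Irf4, a factor of cDC2 and of IL-4-treated macrophages, had 130 (runs 79.2, 130 and 180) against 56.3 in cDC2 cells and 7.50 in macrophage cells. Mgl2, a galactose-type lectin of cDC2 and alternatively activated macrophages, had 700 (runs 620, 678 and 829), against 1050 in cDC2 cells and 45.7 in macrophage cells. Of the migratory DC list, Ccr7, Il12b and Ccl22 were lower than in cDC2 cells, 3 of 3 considered, with Ccr7 at 49.3 against 576. Antigen presentation lay between the groups: H2-Ab1 was at 7862 against 6473 in macrophage and 11666 in cDC2 cells. Of the class II genes, 4 of 8 were at least 2-fold higher than in macrophage cells (H2-DMa, H2-DMb1, H2-DMb2 and Ciita), and 3 of 10 lower than in cDC2 cells (H2-DMb2, H2-Oa and H2-Ob). Of 7 costimulation genes 5 were lower than in cDC2 cells, Cd80, Cd40 and Icosl among them.

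**Figure D3:**
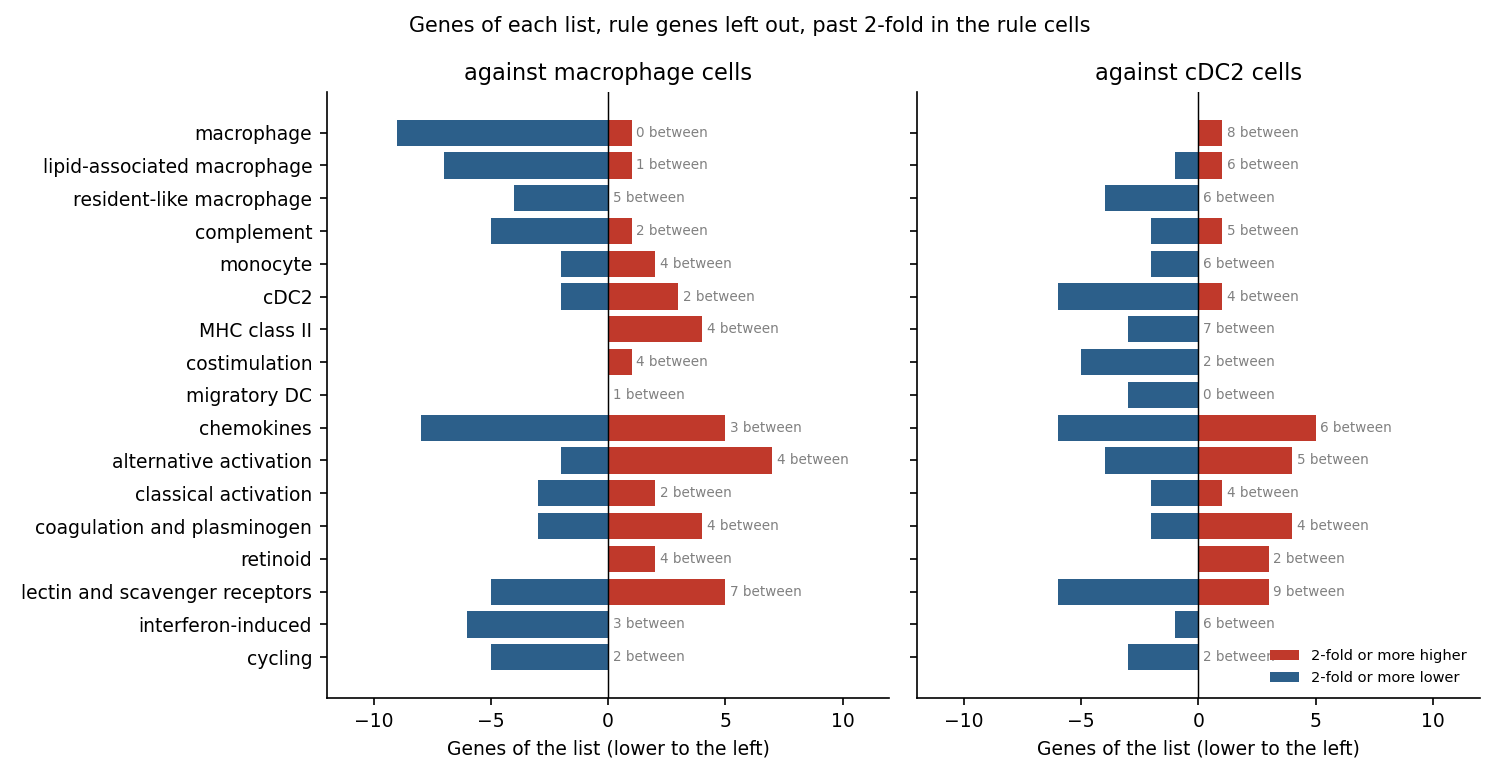
Number of genes of each list that were at least 2-fold higher (bars to the right) or lower (bars to the left) in the Retnla/Ear2 cells than in macrophage cells and cDC2 cells, rule genes left out, with the number between the limits printed beside each bar. Against macrophage cells 9 of 10 macrophage genes and 7 of 9 lipid-associated genes lie to the left, and against cDC2 cells 6 of 11 cDC2 genes do.

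Monocyte genes gave no common direction. Of 8 considered against macrophage cells, Ifitm6 and Ifitm3 were higher and Ms4a4c and Cx3cr1 lower. Against cDC2 cells 0 of 8 were at least 2-fold higher, and Plac8 and Ms4a4c were lower. Ly6c2, the marker of classical blood monocytes, had 2.79 CPM in the Retnla/Ear2 cells, 6.89 in macrophage cells and 16.4 in cDC2 cells. Ifitm6 had 104 against 5.24 and 61.4. Vcan, the matrix proteoglycan versican of monocytes, had 12.9 against 2.01 and 0.721, under the 20 CPM needed to be counted.

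Chemokines showed another split. Ccl6 was at 3126 CPM (runs 2921, 3101 and 3384) against 567 in macrophage and 512 in cDC2 cells, and Ccl9 at 1807 (runs 1662, 1772 and 1961) against 345 and 475. Both attract myeloid cells, and neither showed a run below any run of the other groups. Cxcl2, which attracts neutrophils, was at 4473 against 1920 and 756. Of 16 chemokines considered against macrophage cells 5 were higher and 8 lower (median log2 fold -1.04), the lower ones being Ccl3, Ccl4, Ccl7, Ccl8, Ccl12, Cxcl9, Cxcl10 and Cxcl16. Of 9 interferon-induced genes, 6 were lower than in macrophage cells and 0 higher (median -1.37), among them Ifit1, Ifit3 and Irf7, where 9.63% of all genes were lower. Against cDC2 cells 1 of 7 was lower, Ly6a, and 0 higher (median -0.27).

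Of 13 alternative activation genes outside the rule, 7 were higher than in macrophage cells (Mrc1, Mgl2, Irf4, Ccl17, Ccl24, Socs2 and Egr2) and Arg1 and Tgm2 lower, with a median log2 fold of 1.13 beside -0.06 over all genes. Against cDC2 cells the same list was split, with 4 of 13 higher (Irf4, Ccl24, Socs2 and Egr2), 4 lower (Arg1, Clec10a, Il4ra and Ccl17) and a median of -0.51. Mrc1, the mannose receptor, was at 731 CPM against 335 and 493, and was higher than in macrophage cells in 5 of 6 runs. Ccl24, an eosinophil attractant, was at 47.2 against 10.6 and 10.4. Chil3, which IL-4 also induces, had 11 UMIs, 0.990 CPM. Il4ra, part of the IL-4 receptor, was at 102 against 164 in macrophage and 225 in cDC2 cells, and Stat6 at 55.8 against 56.6 and 63.8. Of the classical activation genes, Il6 was at 74.1 against 12.2 and 16.6, whereas Tnf, Cxcl9 and Cxcl10 were lower than in macrophage cells.

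In the retinoid list, 22 genes long, only 6 reached the level considered. Aldh1a2 and Rarg, a retinoic acid receptor, were higher than in macrophage cells, and Aldh1a2, Rarg and Dhrs3, a retinal reductase, higher than in cDC2 cells. Rarg was at 32.1 CPM against 8.92 and 15.9. Of 8 C/EBP and granule genes, Cebpe and Lyz1 were higher than in macrophage cells and Cebpa and Ltf lower. Mpo had 2 UMIs and Elane 0, which allows up to 3 UMIs in 11107259. Batf3, a factor known from cDC1, was at 114 (runs 103, 115 and 118) against 18.5 and 32.2.

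Of 11 checkpoint and TGF-β genes, Thbs1 and Nrros were higher than in macrophage cells and Tgfbr1, Tgfbr2, Havcr2 and Lag3 lower. Thbs1, thrombospondin 1, was at 901 CPM (runs 738, 870 and 1410) against 205 and 178. Havcr2, the checkpoint receptor TIM-3, was at 13.1 against 119 and 58.8. Cd274, which encodes PD-L1, was at 40.2, 39.9 and 62.0. Of 13 integrins and fibronectin receptors considered against macrophage cells, Itgam (CD11b) was higher, at 352 against 166, and 4 were lower, among them Itgax, which encodes the CD11c used to select the cells, at 134 against 292. For higher genes this share is near the 6.17% of all genes. Against cDC2 cells 0 of 12 were higher and 1 lower, Itgb7. The 10 immediate early and heat shock genes, which respond to tissue digestion, gave 0 higher and 1 lower against macrophage cells and 0 of either against cDC2 cells.

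The cells differed among themselves along Retnla. They were divided by their Retnla UMIs into 134 cells with 0, 128 with 1 to 9, 191 with 10 to 99 and 196 with 100 or more, whose median depths were 13695, 15429, 12113 and 18512.5 UMIs. Lyz1 stood at 111, 310.0, 491 and 1262 CPM in this order. F7 went from 34.6 to 90.6, 108 and 143, Aldh1a2 from 34.6 to 41.6, 57.8 and 98.8, and Cebpe from 11.5 to 16.2, 20.6 and 37.7. F13a1, the transglutaminase factor XIII A chain, went from 60.7 to 268, 259 and 407. For each of these genes the top class was above the class with 0 in 6 of 6 runs. The class with 0 held only 5 cells in run 4 and 18 to 33 in the other runs. Its Cebpe level rests on 23 UMIs.

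Some genes that were higher in cDC2 cells went down along the same classes. Cd209a, which encodes a DC-SIGN homolog and is high in cDC2 cells by choice, fell from 278 CPM to 149, 69.1 and 26.9. Mgl2 fell from 1037 to 509.7, H2-Ab1 from 10144 to 6735 and Il1b, the inflammatory cytokine, from 3063 to 943, all in 6 of 6 runs. Zbtb46 was also lower in the top class in 6 of 6 runs and Itgb7 in 5, but Ccr7, Klrd1 and Clec10a were lower in only 4 of 6, and Flt3 was higher in 4 of 6. Cd226 was nearly level along the classes, at 65.2, 70.0, 69.4 and 79.8, as was Irf4 at 126, 139, 123 and 133, and F10 was higher in the top class in 4 of 6 runs. Ear2 was at 892, 729, 836 and 894, but the rule asks for Ear2 in every cell with 0 Retnla, so its course along these classes is set in part by the choice.

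**Figure D4:**
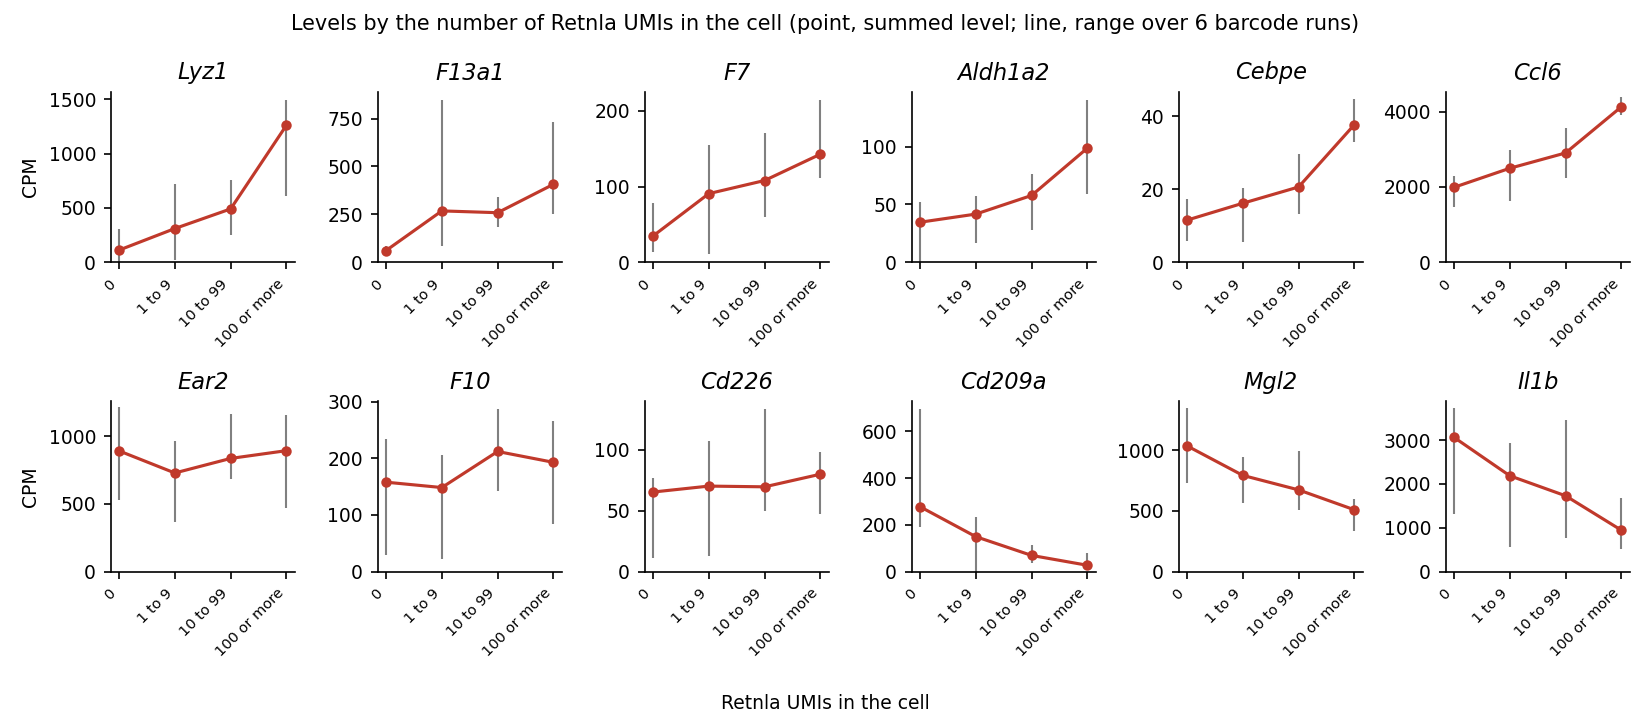
CPM (vertical axes, from 0) of 12 genes in the Retnla/Ear2 cells divided by their Retnla UMIs (horizontal axes: 0, 1 to 9, 10 to 99, 100 or more), with points for the summed level and lines for the range over the 6 barcode runs. Lyz1, F7, Aldh1a2, Cebpe and Ccl6 rise along the classes, Cd209a, Mgl2 and Il1b fall, and Ear2, which the rule requires in the first class, stands at 892 there and 894 in the last.

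Over single cells, as UMIs per 10000, the 10 genes most like Retnla among 5025 were Ctsd (Spearman's rho 0.51), Ccl6 (0.49), F13a1 (0.48), Lyz1 (0.43), Ccl9 (0.39), Hmox1, Pmp22, Ms4a8a, Ctsb and Aldh1a2 (0.35). Those most like Ear2 were Psap (0.42), Rplp2 (0.39), Gm2a (0.38), Rps27a, Plxnd1, Clec4b1, Rpl41, Atp5l, Rps24 and Rpsa. Between Retnla and Ear2 themselves rho was 0.017. These values describe cells of 1 matrix that differ in depth and were chosen by both genes.

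The 103 cells with Retnla and no Ear2 stood apart. Their Apoe level was 12520 CPM, against 1140 in the 412 cells with both and 2433 in the 134 with Ear2 alone, and their C1qa level 4179 against 1063 and 862. Aldh1a2 was at 32.0, 79.0 and 34.6 in this order of classes, and F10 at 99.5, 202 and 158. These 103 cells were also shallower, with a median of 9622 UMIs against 17218 and 13695, and their range over runs was wide (8719 to 22016 for Apoe). The part of depth in this was not tested.

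Cells that missed the rule by 1 condition differed from those that passed in some genes and were near them in others. The 482 cells with no Fn1 UMI and all else met had 32.0 Lyz1, 21.4 F10 and 6.33 Aldh1a2 CPM. Any of them with at least 3 Cd209a UMIs also met the cDC2 definition, and their number was not counted. The 482 cells had more Cd209a (326) and Flt3 (62.2) than the Retnla/Ear2 cells (106 and 2.88). They also had 20.03 Ly6c2, 230 Plac8, 1722 C1qa and 6884 Apoe, against 2.79, 62.5, 1360 and 2587 in the Retnla/Ear2 cells. The 199 cells with no Retnla or Ear2 UMI had 33.8 Lyz1, 2.44 Cd226 and 4.48 Aldh1a2, with 87.9 Ly6c2, 273 Plac8 and 11186 Apoe. They had 31.8 Cd209a and 2.85 Flt3. Their F10 level was 87.5, against 183 in the Retnla/Ear2 cells and 15.3 in macrophage cells. Thbs1 was at 1121 and Cxcl2 at 4096 in these 199 cells, near the 901 and 4473 of the Retnla/Ear2 cells. Ly6c2, Plac8 and Apoe were thus above the Retnla/Ear2 cells in both sets, and Cd209a and Flt3 in the set without Fn1 only. A further 57 cells lacked only Ccr2 and 11 had at least 2 Gpnmb UMIs. The 57 had 785 Lyz1, 33.3 Aldh1a2, 13.8 Cebpe and 134 Il1rl1 CPM, against 678, 66.0, 24.6 and 38.3 in the Retnla/Ear2 cells. Their Lyz1 level ranged from 22.4 to 2069 over runs. Their F10 level was 67.6, below the 183 of the Retnla/Ear2 cells. Any of the 57 with C1qa and Csf1r also met the macrophage definition. The 11 had 184 Lyz1 and 157 F7, against 678 and 105.

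The condition on Mki67 left out 299 cells that met everything else, 31.5% of both sets combined. They were deeper (median 22031 UMIs) and had 213 Top2a and 445 Stmn1 CPM, genes of dividing cells, against 10.3 and 34.3. Of the genes described above, Lyz1 was at 699.7 against 678, Aldh1a2 at 83.2 against 66.0, Cebpe at 32.8 against 24.6, F10 at 155 against 183 and Cd226 at 80.9 against 72.7. Ear2 was at 685 against 848, and Retnla at 5305 against 7871. Larger differences were those of C1qa, at 680 against 1360, Flt3, at 9.39 against 2.88, Klrd1, at 16.0 against 6.39, and Itgb7, at 55.9 against 23.0.

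Markers of most other cell types were low, while those of epithelium, cDC1 and dividing cells were not. Ear2 is named for eosinophils. Of the eosinophil markers Epx, Prg2, Prg3 and Il5ra were at 0 UMIs in all 649 cells, but also in macrophage and cDC2 cells. The 7 eosinophil markers summed to 5.13 CPM (runs 3.14 to 8.20), against 2.31 in macrophage and 2.02 in cDC2 cells. At least 2 such UMIs were found in 1.54% of the Retnla/Ear2 cells, 0.199% of macrophage cells and 0.200% of cDC2 cells. Of 7 neutrophil markers Ly6g and Retnlg were at 0, and the list summed to 10.2. The serous cavity factor Gata6 had 3 UMIs. Of the 13 serous cavity genes outside the rule, Cd226 and Irf4 were higher than in macrophage cells and 0 lower among 4 considered (median log2 fold 2.20), and against cDC2 cells the same 2 were higher and Clec10a, Cxcl13 and Timd4 lower among 6 (median -1.39). Alveolar macrophage markers summed to 11.7, with Fabp1 and Krt79 at 0. The 6 epithelial markers summed to 255 (runs 4.40 to 524), beside 259 in macrophage cells (28.8 to 1329) and 122 in cDC2 cells (29.3 to 321). At least 2 such UMIs were found in 96 Retnla/Ear2 cells (14.8%), 8.64% of macrophage cells and 14.4% of cDC2 cells, and Krt8, Krt18 and Krt19 were at least 2-fold higher than in cDC2 cells. The 7 cDC1 markers summed to 210 (442 in macrophage and 205 in cDC2 cells), with Batf3 at 114 of this. At least 2 such UMIs were found in 60.6% of the Retnla/Ear2 cells. Of 3 cDC1 genes considered against macrophage cells, Batf3 was higher and Irf8 and Cadm1 lower (median log2 fold -1.68). Against cDC2 cells only Batf3 of 3 was higher and 0 were lower (median -0.61). The migratory DC markers summed to 75.5, against 89.5 and 710. The 8 cycling markers other than Mki67, which the rule sets to 0, summed to 162.5, against 426 and 376. Genes that go with Mki67 share in this choice. At least 2 UMIs of cycling markers were still found in 53.0% of the Retnla/Ear2 cells. Without the 96 cells with epithelial UMIs, an alternative chosen after seeing the data, 553 cells remained and 362 genes were higher and 570 lower than in macrophage cells, 285 higher and 348 lower than in cDC2 cells. Of the folds of named genes past 2-fold, that of Vcam1 against cDC2 cells fell under it without these cells, and the log2 fold of Spp1 against macrophage cells went from -5.12 to -6.28.

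The same rule was applied to the matrix of CD4/CD8 bead-selected cells, from other samples. There 19 of 22806 kept cells passed (0.0833%, 0.0502 to 0.130), with a median of 13912 UMIs and at least 1 in each of the 6 barcode runs. 5 of the 19 also had at least 2 UMIs of T cell markers. The comparison cells were 858 macrophage cells of that matrix. Lyz1 was at 1888 CPM (1734 to 2052) against 84.8, 22.3-fold (20.2 to 24.6), F10 at 225 (174 to 286) against 8.17, 27.5-fold (20.2 to 37.1), and F7 at 85.2 (55.1 to 126) against 9.68. Cd226 was at 54.5 against 1.10 and Irf4 at 112 against 2.90, and in all other cells of that matrix they stood at 27.4 and 8.65. Aldh1a2 had 21 UMIs, 71.6 CPM (44.3 to 109), against 2 UMIs in the macrophage cells, a ratio with a counting interval of 151 to 5434. Cebpe rested on 6 UMIs, 20.5 CPM (7.51 to 44.5). Apoe was at 320 against 42626 and Spp1 at 27.3 against 9576.

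Of the leading genes over macrophage cells in the CD11c-selected cells, 12 of 12 outside the rule were at least 2-fold higher in the 19 cells too, where 13.8% of 6000 genes were, and 10 of 10 of the lowest genes were at least 2-fold lower, where again 13.8% were. Both groups of that matrix were chosen by the same conditions, so genes that go with the rule share in the choice. The counts are therefore no independent test. Cd226 and Cd2 are among the 12 genes, and 5 of the 19 cells had at least 2 T cell marker UMIs. The 19 cells came through another bead selection and from mid-size tumors, so levels in both matrices stand side by side and are not compared.

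**Figure D5:**
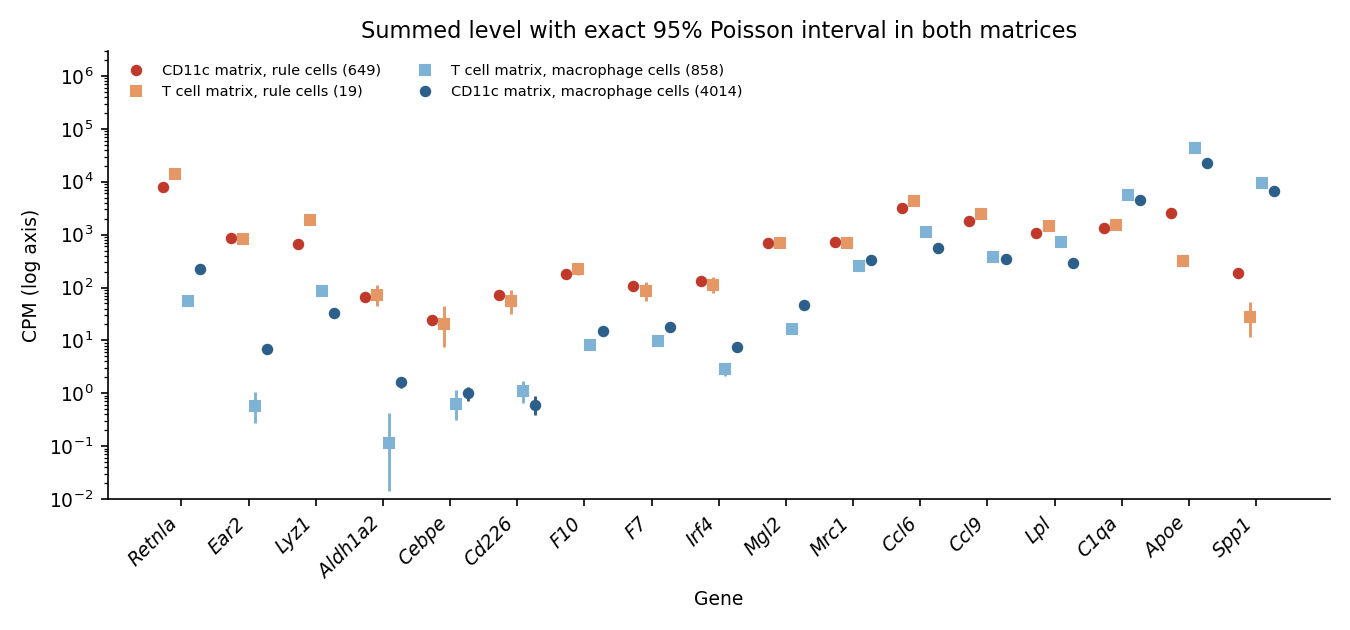
CPM (log axis) of 17 genes in the cells that pass the rule and in macrophage cells, for the CD11c-selected and the CD4/CD8-selected matrix, with exact Poisson 95% intervals; Retnla and Ear2 chose the cells. Lyz1, F10, F7, Cd226 and Aldh1a2 are above the macrophage cells in both matrices, on 649 and on 19 cells, and Apoe and Spp1 below them.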

How the data were processed

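UMI counts per gene and cell were measured in CD11c-selected and CD4/CD8-selected tumor cells. The authors made the deposited count matrices with Cell Ranger 3.0.2 and mm10, by the submitters' processing notes, and joined 6 samples in each; the barcodes do not name the sample, so no sample or genotype could be set apart. The members and gene lists were chosen with earlier results of these data known. Cells with fewer than 200 detected genes were left out (341 of 11980 barcodes); no doublet caller was run and no doublets were removed. UMIs were summed over the cells of a group and given as CPM, with exact Poisson intervals, Clopper-Pearson intervals for shares and exact conditional intervals for ratios, all at 95%. Against a group at 0, a floor of 3 counts was used. Genes of at least 20 CPM in either group and at least 2-fold apart were counted; no test was run, since each matrix is 1 sample. The text names the genes of the rule and lists, the 15 highest and 10 lowest genes seen in at least 25% of cells, and the 10 genes most alike by Spearman's rho; Mid1 and Mucl1 were singled out after their values were seen. Python 3.11.15, numpy 2.4.6 and scipy 1.17.1 were used, and the counts were tested on simulated data. Of 31053 symbols, 30431 matched GENCODE mouse release 21.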

Additional observations from a re-analysis of the deposited data

How the results depend on the processing

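The number of Retnla/Ear2 cells, 649, was 412 when at least 1 UMI of Retnla and of Ear2 was asked for, and lay between 509 and 591 when 1 barcode run was left out. Against macrophage cells the genes higher numbered 228 at a minimum of 50 CPM, 544 at 5 and 184 at 3-fold, and the genes lower 297, 1115 and 283. Against cDC2 cells the genes higher numbered 152, 538 and 117 and the genes lower 197, 639 and 144 under the same settings, which consider other genes or set another limit. Leaving out each run in turn gave 341 to 380 higher and 540 to 580 lower against macrophage cells, and 270 to 308 and 321 to 337 against cDC2 cells. In the T cell matrix 10 cells remained of 19 without the 5% of cells with the most UMIs, and 13 to 18 without 1 run, with 13 when run 2 was left out. Of 900 folds of named genes past 2-fold, over the alternative settings, 889 stayed past it and 0 changed direction. The 11 others were Mrc1 against macrophage cells under 3 settings, Flt3 against macrophage cells under 1 and Vcam1 against cDC2 cells under 7, and the cause was not tested. No paired analysis was possible because the barcodes carry no sample or replicate number. Genes with under 20 CPM, PAR2 among them, are limited by depth.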

Other observations

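Mid1, a ubiquitin ligase gene of the X chromosome, varied widely between barcode runs. In the Retnla/Ear2 cells it stood at 20.6, 42.3, 0, 236, 142 and 199 CPM in runs 1 to 6, and in macrophage cells at 20.01, 25.3, 1.65, 143, 93.7 and 133. The run with 0 UMIs in the Retnla/Ear2 cells was thus also the lowest in macrophage cells. The runs are not tied to a sample or genotype.

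Mucl1, a secreted mucin-like gene of mammary epithelium, had 673 UMIs in the Retnla/Ear2 cells, but these lay in 22 cells (3.39%), with 317 in 1 cell. Its fold over macrophage cells was 122 and over cDC2 cells 140. Its sum over the group therefore rests on few cells. Whether these cells also carried epithelial markers was not tested.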
